A study of Mus musculus with 12 samples.

Results

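Collagens are the triple-helical proteins that give bone marrow and bone their extracellular scaffold. Fibrillar collagens (types I, II, III, V, XI, XXIV and XXVII) form the banded fibrils of connective tissue, and type I is the main protein of bone matrix. Basement membrane collagens form sheets (type IV) or sit in the zone beside them (types XV and XVIII), while type VI builds beaded filaments close to the cell surface. Stromal cells such as mesenchymal stem cells (MSCs), osteoblasts and fibroblasts are their best known sources.

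The collagen genes were taken as all protein-coding mouse genes named Col, a type number, the letter a and a chain number. There were 44 of them among the 55487 genes counted, with 11 fibrillar, 8 basement membrane and 25 other members. The rule reads gene names and no measured value, but the family was picked for description with earlier results of these data known.

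RNA-seq counts came from 2 experiments on C57BL/6 mice with a labelled age of 8 weeks, analyzed apart. In the first, bone marrow macrophages (BMMs) were grown from ovariectomized (OVX) mice, which lack ovarian estrogen, or from sham-operated mice, with 3 libraries each. In the second, bone marrow MSCs were cultured alone (MSC), with RAW cells, a mouse macrophage line (MSC+RAW), or with RAW cells that had been stimulated with lipopolysaccharide, LPS (MSC+RAW-LPS), with 2 libraries each. The MSCs were adherent marrow cells purified by passage, and the labels do not say whether a membrane kept them apart from the RAW cells. Nothing in the labels says whether libraries came from separate animals or cultures, so p-values measure the spread between these libraries, which may be technical.

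Libraries held between 17012923 and 45367105 counts. Sham replicates 2 and 3 differed by about the same multiple of sampling noise in weakly and strongly expressed genes (2.5 and 2.7), as did the MSC+RAW libraries (3.07 and 3.18), whereas every other pair of a group reached at least 15.1 in strongly expressed genes. Each of these pairs was therefore counted as 1 sample, which leaves n = 3 for OVX, n = 2 for sham, MSC and MSC+RAW-LPS, and n = 1 for MSC+RAW. The 16 macrophage markers summed to between 29283 and 29529 CPM (each gene's count scaled to library size) in MSC, between 40022 and 40593 in MSC+RAW, and between 15131 and 15800.2 in MSC+RAW-LPS, so all libraries labelled as MSC carried abundant macrophage RNA. In BMM, the 15 stromal markers summed to between 5140 and 5484 CPM in OVX and between 3418 and 4053 in sham. In the 3 MSC groups, which were scaled apart, they summed to 1591 to 1862 CPM. Acta2 alone held 2322 to 2855 CPM of the sum in OVX, and not every marker was higher in BMM. Pdgfrb ranged from 91.1 to 114 CPM in BMM and from 139 to 167 CPM in the MSC groups. The part of macrophage and stromal RNA in the collagen values below was not tested, and fewer cells of a type cannot be told apart from less RNA per cell.

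Collagen mRNA was abundant in both experiments. Levels are CPM with TMM-scaled library sizes, and the experiments were scaled separately. The filter on low counts kept 34 of the 44 members in the BMM fit and 39 in the MSC fit, and the others are given by counts only. At a mean of at least 1 CPM, 26 members were detected in OVX, 29 in sham, 27 in MSC, 29 in MSC+RAW and 29 in MSC+RAW-LPS, and between 11 and 13 members reached 100 CPM. The members with at most 3 counts in every library numbered 4 in OVX, 2 in sham, 4 in MSC, 6 in MSC+RAW and 5 in MSC+RAW-LPS. Col9a1, a cartilage collagen chain, had 4 counts in sham replicate 1 and 0 in every other library, and the cartilage proteoglycan gene Acan was at or below 0.105 CPM throughout.

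**Figure D1:**
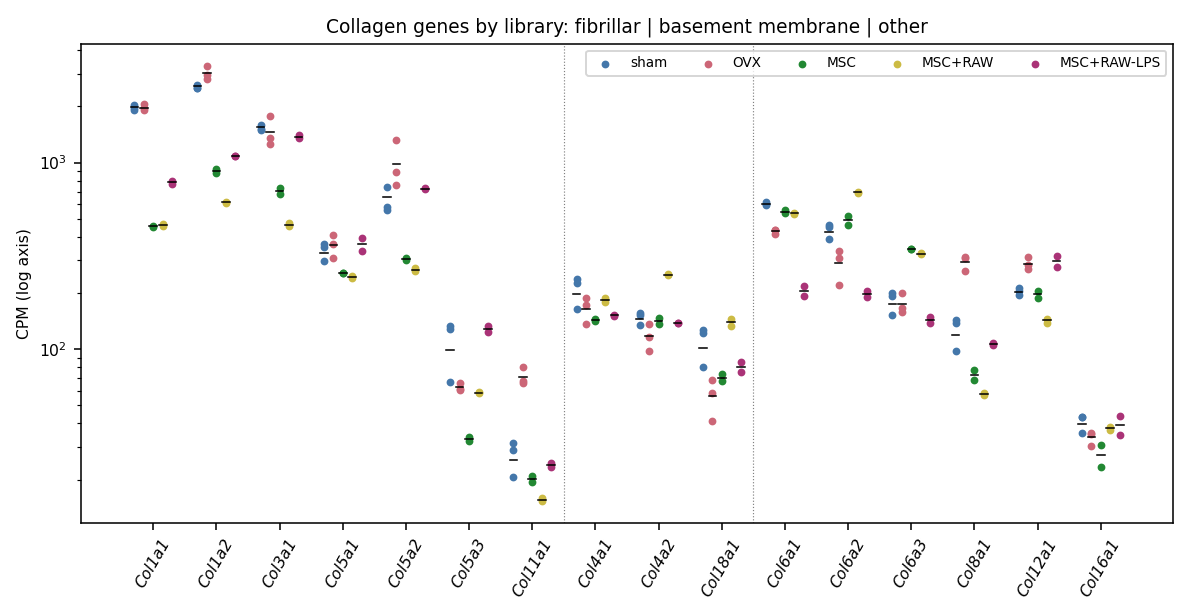
Levels of 16 collagen genes in CPM on a log axis, with 1 point per library and a black bar at the group mean (a near-identical pair counts once). The type I genes Col1a1 and Col1a2 lie highest in sham and OVX, and Col5a3 has its highest group mean in MSC+RAW-LPS (128 CPM). The type VI genes Col6a1, Col6a2 and Col6a3 lie lower in MSC+RAW-LPS than in MSC and MSC+RAW.

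Of all counts, collagen genes took 1.07% ± 0.0586 (SD, n = 3) in OVX and 0.849% ± 0.0148 (n = 2) in sham. The share was 0.542% ± 0.00354 (n = 2) in MSC, 0.412% in MSC+RAW (n = 1) and 0.571% ± 0.0276 (n = 2) in MSC+RAW-LPS. The 95% Wilson interval of a library, which takes counts as independent, was at most 0.00438 percentage points to either side, small beside these differences. Even the near-identical pairs differed by 2.5 to 3.18 times sampling noise, so this interval is too narrow, and it covers counting error only. These shares were not tested, and they are relative to all other RNA in a library. The TMM factors ran from 1.07 to 1.094 in OVX and from 0.906 to 0.93 in sham, so on the CPM scale used for single genes the difference between them is smaller.

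The make-up of the collagen counts also differed between the groups, and was not tested. Fibrillar genes held 80.9% ± 1.73 (SD) of collagen counts in OVX, 78.1% ± 2.44 in sham, 56.6% ± 1.56 in MSC, 47.2% in MSC+RAW and 76.5% ± 0.141 in MSC+RAW-LPS. Type VI genes held 9.12% ± 0.576, 13.0% ± 0.955, 29.1% ± 1.13, 34.2% and 9.28% ± 0.113 in the same order. Basement membrane genes held 12.9% in MSC+RAW and between 3.56% and 7.83% in the other groups. Thus the fibrillar share was highest, and the type VI share lowest, in the BMM groups and in MSC+RAW-LPS.

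**Figure D2:**
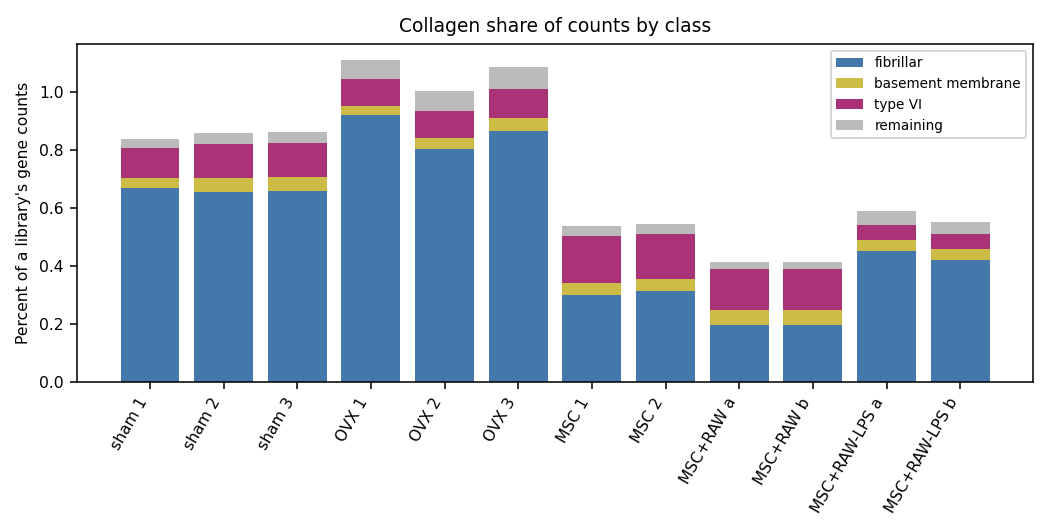
Percent of each library's gene counts taken by fibrillar, basement membrane, type VI and remaining collagen genes, stacked from 0. The type VI block is smallest in the MSC+RAW-LPS libraries (mean 0.0529% of counts) against 0.158% in MSC and 0.141% in MSC+RAW.

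Per kilobase of exon, Col1a1 and Col1a2, the chains of type I collagen, led the fibrillar class in BMM at means of 302 and 225 CPM per kb, followed by Col3a1 (154 CPM per kb). In MSC alone Col3a1 (71.7), Col1a1 (69.6) and Col1a2 (72.7 CPM per kb) were close together. In MSC+RAW Col1a1 led (70.7, against 47.4 for Col3a1 and 49.3 for Col1a2), and in MSC+RAW-LPS Col3a1 led (141, against 119 for Col1a1 and 87.1 for Col1a2 CPM per kb). Col6a1 led the other collagens in both experiments (118 and 98.0 CPM per kb), and Col4a1 with Col4a2 led the basement membrane class at between 19.8 and 26.8 CPM per kb. Type I protein holds a pair of alpha 1 chains for each alpha 2 chain, but the Col1a1 to Col1a2 mRNA ratio per kb of exon was 1.24 ± 0.0766 in OVX, 1.47 ± 0.0203 in sham, 0.958 ± 0.0257 in MSC, 1.44 in MSC+RAW and 1.37 ± 0.0334 in MSC+RAW-LPS. This ratio depends on the length used. With the longest coding transcript, which is shorter than the exon union for Col1a2 (5348 against 12426 bases), it was between 0.456 and 0.7, with MSC still lowest.

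Promoter sequences from RefSeq (GRCm38.p6) are given for 6 called genes whose stretch before the start overlaps no annotated exon, to show what lies before genes that moved together or apart. Each line gives the 150 bases before the start, 5′ to 3′ on the gene's strand, and capitals mark the motif CCAAT, the GC box core GGGCGG, the TATA form TATAAA or the AP-1 core TGANTCA on either strand. Against MSC+RAW, MSC+RAW-LPS had higher Col3a1 and Col5a3 and lower Col6a2 and Col6a3 (Col3a1 was not called against MSC), and Col8a1 and Col11a1 were higher in OVX than in sham.
Col3a1 (chr1:45311388-45311537, plus strand): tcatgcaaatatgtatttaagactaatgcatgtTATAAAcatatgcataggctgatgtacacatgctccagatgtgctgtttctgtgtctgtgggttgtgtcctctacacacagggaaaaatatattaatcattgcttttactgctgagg
Col5a3 (chr9:20815068-20815217, minus strand): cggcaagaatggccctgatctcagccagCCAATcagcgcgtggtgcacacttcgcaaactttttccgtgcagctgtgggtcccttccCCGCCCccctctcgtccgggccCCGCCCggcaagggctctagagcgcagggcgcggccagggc
Col6a2 (chr10:76623631-76623780, minus strand): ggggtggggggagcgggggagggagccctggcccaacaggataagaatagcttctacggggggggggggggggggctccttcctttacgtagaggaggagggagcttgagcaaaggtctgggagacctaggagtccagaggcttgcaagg
Col6a3 (chr1:90843972-90844121, minus strand): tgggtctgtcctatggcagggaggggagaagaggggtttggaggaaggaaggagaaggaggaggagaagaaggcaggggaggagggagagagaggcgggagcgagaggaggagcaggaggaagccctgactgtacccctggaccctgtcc
Col8a1 (chr16:57754738-57754887, minus strand): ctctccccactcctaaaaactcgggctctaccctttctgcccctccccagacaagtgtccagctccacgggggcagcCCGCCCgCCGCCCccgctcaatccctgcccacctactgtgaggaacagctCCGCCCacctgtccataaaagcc
Col11a1 (chr3:114030390-114030539, plus strand): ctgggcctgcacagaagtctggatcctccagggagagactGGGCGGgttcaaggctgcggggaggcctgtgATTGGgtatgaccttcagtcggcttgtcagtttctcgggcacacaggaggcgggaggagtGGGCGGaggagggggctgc

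The Col3a1 stretch holds a TATAAA, the Col5a3, Col8a1 and Col11a1 stretches hold GC box cores, and those of Col5a3 and Col11a1 also hold a CCAAT. The Col6a3 stretch and the Col6a2 stretch shown hold none of the 4 motifs, but the stretch before a second RefSeq start of Col6a2 (chr10:76623405-76623554), which overlaps an annotated exon, holds GGGCGG. Over the full 300-base windows, which matched 35 of the 44 members, GGGCGG was found in 22 members (35.7% of 32851 windows of all genes), CCAAT in 12 (37.4%), TATAAA in 5 (13.6%) and TGANTCA in Col6a1 alone (7.81%). None of the motifs contains another, and a match is a description of letters only. Col4a1 and Col4a2 lie head to head on chromosome 8 with starts 21 bases apart, and the successive collagen genes Col6a1 and Col6a2 lie on the minus strand of chromosome 10, and Col3a1 and Col5a2 on opposite strands of chromosome 1.

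OVX and sham BMMs were compared to ask which genes ovariectomy changed in these cultures. Col11a1 and Col8a1 were the only collagen genes called (a fold change of at least 2 with an edgeR adjusted p of at most 0.05 over all genes tested), and both were higher in OVX. Col11a1 encodes a chain of type XI collagen, which sets fibril diameter, and Col8a1 encodes a chain of the short-chain, network-forming type VIII collagen. The most abundant collagens, Col1a1, Col1a2 and Col3a1, had no call in either direction.

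Col11a1 (chr3:114030540-114220718) stood at 80.2, 66.0 and 67.6 CPM in the OVX libraries and at 20.7, 28.9 and 31.3 CPM in sham. The groups did not overlap, and the log2 fold change was 1.47 ± 0.23 (SE, adjusted p = 0.00874). Col8a1 (chr16:57624258-57754737) stood at 261, 307 and 313 CPM in OVX and at 98.0, 138 and 143 CPM in sham. All OVX values lay above all sham values, with a log2 fold change of 1.29 ± 0.22 (adjusted p = 0.0113). Without OVX replicate 2 the Col8a1 call was lost (log2 1.26, adjusted p = 0.0649).

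Of the 34 members tested, 2 were called higher and 0 lower, that is 5.88% of members, against 8.46% of the 16768 genes tested (5.39% higher and 3.08% lower). The share of members called was thus near the background. The count is from edgeR's quasi-likelihood test, 10 members had an unadjusted p of at most 0.05, and DESeq2 also called 2. Among fibrillar genes Col1a1 averaged 1971 ± 75.7 CPM (SD, n = 3) in OVX and 1993 ± 76.8 (n = 2) in sham, and Col1a2 averaged 3017 ± 265 and 2568 ± 63.5 CPM. Col3a1 averaged 1468 ± 281 and 1553 ± 66.6 CPM. Their log2 fold changes were -0.03 ± 0.16, 0.22 ± 0.17 and -0.09 ± 0.20 (adjusted p between 0.424 and 0.937), and the sign for Col1a1 and Col3a1 turned under other scalings.

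None of the type VI or basement membrane genes was called in this comparison. Col6a1, a chain of the beaded filament, stood at 437, 415 and 436 CPM in OVX and at 594, 599 and 612 CPM in sham. These groups did not overlap, but the log2 fold change of -0.49 ± 0.17 missed both limits (adjusted p = 0.0862). Col6a2 stood at 222, 308 and 336 CPM in OVX and at 389, 464 and 451 CPM in sham (log2 -0.56 ± 0.22, adjusted p = 0.129). Col6a3 averaged 175 ± 21.2 CPM in OVX and 174 ± 31.0 in sham (log2 -0.01 ± 0.20, adjusted p = 0.989). Col4a1 averaged 165 ± 26.7 and 198 ± 48.5 CPM (log2 -0.27 ± 0.22, adjusted p = 0.46), and Col4a2 averaged 117 ± 18.9 and 145 ± 13.8 CPM (log2 -0.32 ± 0.20, adjusted p = 0.311). Col18a1, whose protein holds the endostatin fragment, averaged 56.0 ± 14.0 CPM in OVX and 102 ± 31.0 in sham (log2 -0.88 ± 0.27, adjusted p = 0.0681). Without sham replicate 1 Col18a1 stood at -1.16 (adjusted p = 0.0128) and 5 members passed the limits in place of 2, but sham is then 1 sample whose spread is taken to be that of OVX.

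The changes between OVX and sham moved with base composition. Over the 30 members with at least 1 CPM in a group, Spearman's rho between the GC content of the longest coding transcript and the log2 fold change was -0.37, as a description. The called genes had the lowest GC contents among members above 10 CPM (46.8% for Col8a1 and 48.0% for Col11a1). After the trends with GC content and length over all genes were removed, rho was -0.05, and both genes were still called (log2 1.06 and 1.28, adjusted p = 0.0312 and 0.0113). Col6a1 then stood at -0.09, Col6a2 at -0.22 and Col18a1 at -0.43.

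**Figure D3:**
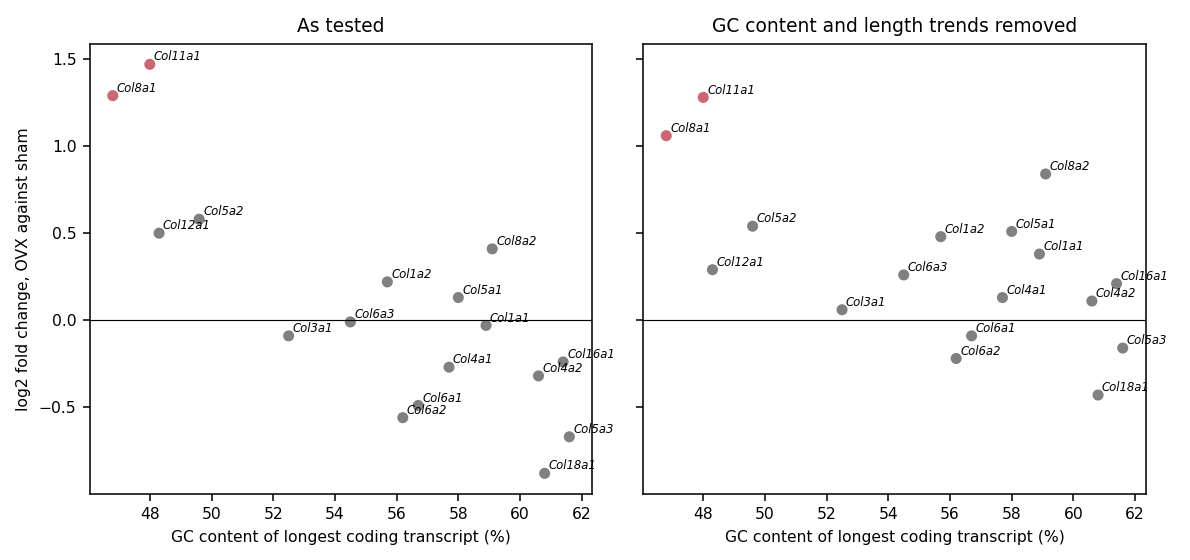
Log2 fold change of OVX against sham for members with at least 10 CPM in a group, against GC content in percent, as tested and with GC and length trends removed. Red points are called genes; Col8a1 and Col11a1 are red in both panels, and Col18a1 moves from -0.88 to -0.43.

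Coculture of MSCs with unstimulated RAW cells was compared with MSCs alone. A change within the MSCs cannot be told apart here from RNA of macrophages in the libraries. Col7a1, which encodes anchoring fibril collagen, and Col18a1 were called higher, and Col11a2, a chain of type XI collagen, was called lower. MSC+RAW is 1 sample in this fit, and its spread is taken to be that of the other groups. Of 39 members tested, 3 (7.69%) were called, against 16.4% of 20499 genes (6.8% higher and 9.59% lower).

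Col18a1 stood at 146 and 134 CPM in the MSC+RAW libraries and at 73.6 and 67.4 in MSC (log2 1.02 ± 0.18, adjusted p = 0.000919). It sits at the fold limit and kept its call in 8 of 14 alternatives. With GC and length trends removed it stood at 0.42 and lost its call. Col7a1 was weakly expressed, at 3.67 and 5.61 CPM in MSC+RAW and 1.37 and 0.528 CPM in MSC (log2 2.26 ± 0.48, adjusted p = 0.00317). It stood at 3.13 without MSC replicate 1 and at 1.76 without MSC replicate 2, called in both. Col11a2 stood at 14 and 2 counts in MSC+RAW against 50 and 39 in MSC (log2 -2.31 ± 0.71, adjusted p = 0.0238), and without MSC replicate 2, which leaves 1 sample in each group, it stood at -2.23 and was not called (adjusted p = 0.0731). Without that library 1 member was called in place of 3.

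Several abundant genes passed the adjusted p but not the fold limit. Col3a1 stood at 457 and 473 CPM in MSC+RAW and 677 and 732 CPM in MSC (log2 -0.57 ± 0.19, adjusted p = 0.0323). Col1a2 stood at 616 and 608 against 880 and 926 CPM (log2 -0.53 ± 0.19, adjusted p = 0.0423), while Col1a1 differed by only 0.05 ± 0.18. Col4a2 averaged 251 CPM in MSC+RAW and 141 ± 7.80 in MSC (log2 0.86 ± 0.17, adjusted p = 0.00217), and its head-to-head partner Col4a1 averaged 183 and 143 ± 2.91 CPM (log2 0.39 ± 0.17, adjusted p = 0.104). Also among these genes, Col6a2 averaged 693 CPM in MSC+RAW and 490 ± 37.6 in MSC (log2 0.53 ± 0.18). The less abundant Col5a3 averaged 58.5 and 33.1 ± 1.22 CPM (log2 0.85 ± 0.18). The median of all genes was itself at -0.13 here. Over 30 members, rho between GC content and log2 fold change was 0.53, and 0.06 after the trends were removed. Col4a2 then stood at 0.25, Col6a2 at 0.15 and Col5a3 at 0.21, and Col4a1 turned to -0.07.

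MSCs with LPS-stimulated RAW cells differed from MSCs alone in 11 collagen genes. Against MSC, the type VI genes Col6a1, Col6a2 and Col6a3 were lower by 2.41 to 2.67 fold, and Col15a1 fell as well, while Col5a2 and Col5a3 of type V collagen, which nucleates and limits fibrils, rose. Col23a1 (a transmembrane collagen) and Col7a1 rose from low levels. In all, 4 of 39 members were called higher (10.3% against 5.85% of all genes) and 7 lower (17.9% against 5.09%), that is 28.2% against 10.9%.

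Col6a1 (chr10:76708792-76726168) stood at 218 and 192 CPM in MSC+RAW-LPS, against 555 and 537 in MSC and 540 and 532 in MSC+RAW. Col6a2 (chr10:76595762-76623630) stood at 191 and 205, against 517 and 463 and against 697 and 689 CPM. Col6a3 (chr1:90765923-90843971), the long chain of the heterotrimer, stood at 139 and 149, against 345 and 346 and against 327 and 322 CPM. For each of these chains both MSC+RAW-LPS libraries lay below all 4 others. Against MSC the log2 fold changes were -1.42 ± 0.15 for Col6a1, -1.31 ± 0.15 for Col6a2 and -1.27 ± 0.15 for Col6a3 (adjusted p = 4.78e-06, 1.01e-05 and 1.13e-05), and each was called in all 15 alternatives. The ratio of Col6a3 to Col6a1 per kb of exon was 0.232 ± 0.00598 in MSC, 0.221 in MSC+RAW and 0.259 ± 0.0365 in MSC+RAW-LPS, and that of Col6a1 to Col6a2 was 2.12 ± 0.114, 1.47 and 1.98 ± 0.275 in the same order.

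The alternative alpha 3-like chains of type VI fell to near the floor. Col6a5 had 2 and 0 counts in MSC+RAW-LPS, 68 and 30 in MSC, and 50 and 27 in MSC+RAW (adjusted p = 0.00177 against MSC). Col6a6 had 6 and 3 counts against 34 and 31 in MSC and 48 and 55 in MSC+RAW. Outside type VI, Col28a1 had 4 and 0 against 49 and 33 and against 48 and 24. Col6a5, Col6a6 and Col28a1 were called lower against both other groups, but Col6a6 kept its call against MSC in 8 of 14 alternatives. Col6a4 had 0 counts in both MSC+RAW-LPS libraries, 22 and 28 in MSC+RAW, against which it was called, and 4 and 6 in MSC. It passed the low-count filter only through MSC+RAW, where it is highest, so its call there is no support for a fall. Of the 6 type VI genes, 5 were called lower against MSC, where 5.09% of all genes were, and 6 against MSC+RAW, where 12% were. With GC and length trends removed these counts were 5 and 4. Both counts against MSC+RAW include Col6a4.

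The fibrillar genes Col5a2 and Col5a3 went up. Col5a2 (chr1:45374321-45503282) stood at 728 and 725 CPM in MSC+RAW-LPS, 300.2 and 307 in MSC, and 271 and 261 in MSC+RAW. Col5a3 (chr9:20770050-20815067) stood at 123 and 134 CPM, against 32.2 and 34.0 and against 58.8 and 58.2 CPM. In both genes the MSC+RAW-LPS libraries lay above all other libraries of the MSC experiment. Against MSC the log2 fold changes were 1.26 ± 0.15 (adjusted p = 1.22e-05) and 1.95 ± 0.15 (adjusted p = 1.44e-07), and both genes were called in all 15 alternatives. Col5a1, which nearly every type V trimer holds, averaged 366 ± 42.0 against 255 ± 1.09 CPM and stayed below the fold limit (log2 0.52 ± 0.15, adjusted p = 0.0236). The ratio of Col5a2 to Col5a1 per kb of exon was 1.78 ± 0.198 in MSC+RAW-LPS, 1.06 ± 0.0214 in MSC and 0.971 in MSC+RAW.

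Type I and III genes passed the adjusted p in part without reaching the fold limit against MSC. Col3a1 stood at 1399 and 1360.2 CPM in MSC+RAW-LPS and 677 and 732 in MSC (log2 0.97 ± 0.15, adjusted p = 0.000182), and it passed the fold limit, at 1.03, without MSC replicate 2. Wherever an MSC library is left out, MSC is 1 sample and its spread is taken to be that of the other groups. Col1a1 stood at 771 and 795 against 454 and 459.5 CPM (log2 0.78 ± 0.15, adjusted p = 0.00115). Col1a2 stood at 1085 and 1079 against 880.4 and 926 CPM (log2 0.26 ± 0.15, adjusted p = 0.263). The Col1a1 to Col6a1 ratio per kb of exon was 2.56 ± 0.279 in MSC+RAW-LPS, against 0.558 ± 0.0178 in MSC and 0.578 in MSC+RAW. In the BMM experiment this ratio was 3.06 ± 0.135 in OVX and 2.22 ± 0.116 in sham.

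Among basement membrane genes, Col15a1, a proteoglycan collagen of the basement membrane zone, stood at 5.64 and 3.22 CPM in MSC+RAW-LPS and at 11.5 and 13.4 in MSC (log2 -1.48 ± 0.27, adjusted p = 0.000759). Col4a1 (152 ± 1.72 against 143 ± 2.91 CPM) and Col4a2 (139 ± 1.09 against 141 ± 7.80 CPM) had log2 fold changes of 0.09 ± 0.14 and -0.03 ± 0.15, with no call. Of the low genes, Col23a1 stood at 2.70 and 2.55 CPM against 0.266 and 0.704 (log2 2.46 ± 0.56, adjusted p = 0.00471), and lost its call without MSC replicate 1 (log2 1.89, adjusted p = 0.067), while without MSC replicate 2 it stood at 3.30. Col7a1 stood at 3.06 and 4.18 against 1.37 and 0.528 CPM (log2 1.90 ± 0.43, adjusted p = 0.00472), and its log2 fold change was 2.77 without MSC replicate 1 and 1.40 without MSC replicate 2, called in both. Removing GC and length trends left 4 higher and 7 lower calls in this comparison.

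**Figure D4:**
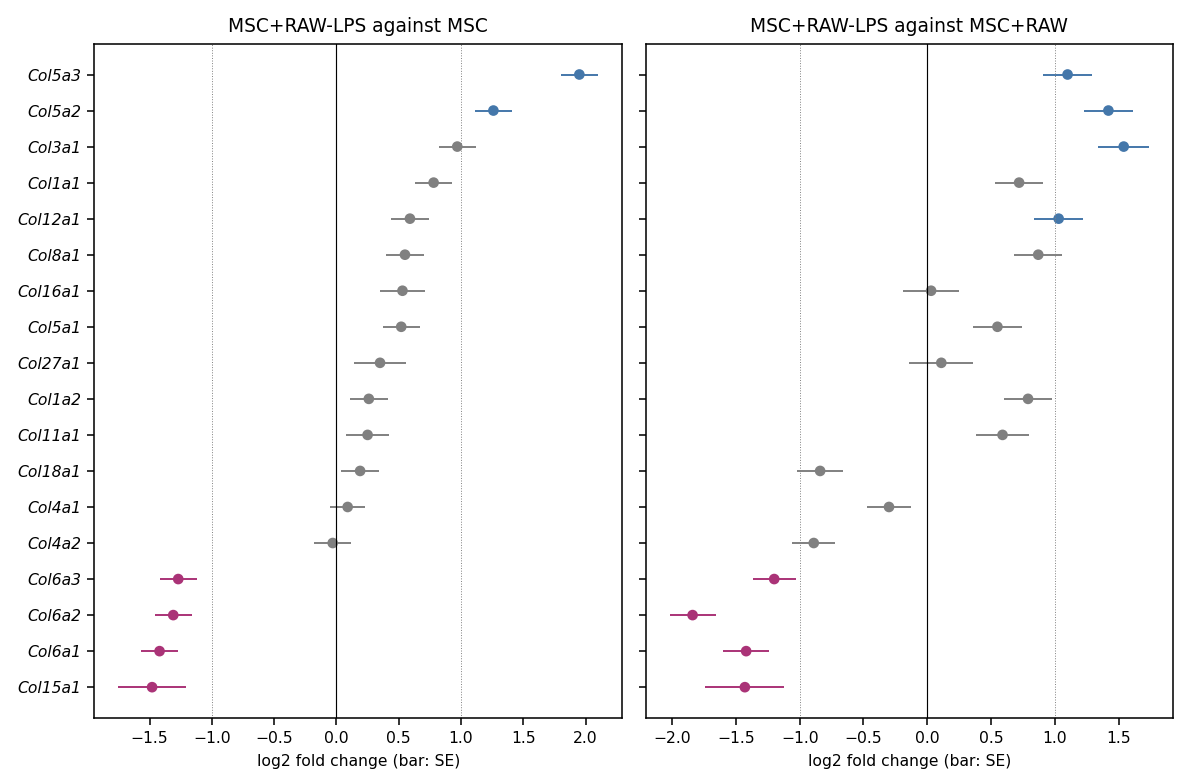
Log2 fold changes with SE bars of the members with at least 10 CPM in a group, for MSC+RAW-LPS against MSC and against MSC+RAW; blue is called higher, purple called lower, grey not called, and dotted lines mark the limit of 1. Col6a1, Col6a2, Col6a3 and Col15a1 are purple, and Col5a2 and Col5a3 blue, in both panels.

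MSC+RAW-LPS was also set against MSC+RAW, which asks what LPS stimulation of the RAW cells added. This comparison shares its MSC+RAW-LPS libraries with the one before, so they are not independent. Of 39 members, 7 were called higher (17.9% against 15.4% of all genes) and 9 lower (23.1% against 12%), that is 41.0% against 27.4%. With GC and length trends removed, the split was 8 higher and 6 lower. The median of all genes stood at 0.14.

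Col3a1 rose from 457 and 473 CPM to 1399 and 1360.2 CPM (log2 1.54 ± 0.20, adjusted p = 2.16e-05). Col5a2 rose by 1.42 ± 0.19 (adjusted p = 3.7e-05) and Col5a3 by 1.10 ± 0.19 (adjusted p = 0.0003), on the log2 scale. These 3 genes were called in all 14 alternatives. Col12a1, a collagen bound to fibril surfaces, rose from 139 and 146 to 315 and 277 CPM (log2 1.03 ± 0.19, adjusted p = 0.000593), but with the trends removed it stood at 0.73 and lost its call. Col11a2 and Col23a1 rose from 0.2 and 0.688 CPM to 2.05 and 2.63 CPM, but Col23a1 (adjusted p = 0.0376) lost its call with DESeq2 (adjusted p = 0.0576) and without MSC+RAW-LPS library a (adjusted p = 0.0544). Col17a1 had 28 and 2 counts in MSC+RAW-LPS and 0 in both MSC+RAW libraries, so its call rests mainly on 1 library. Col1a1 and Col1a2 stood at 0.72 ± 0.19 and 0.79 ± 0.19, under the limit, and were called at 1.20 and 1.08 with the trends removed.

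On the falling side, Col6a2 had a log2 fold change of -1.84 ± 0.18 (adjusted p = 1.41e-06), Col6a1 of -1.42 ± 0.18 (adjusted p = 1.84e-05) and Col6a3 of -1.20 ± 0.17 (adjusted p = 6.61e-05). With GC and length trends removed these were -1.50, -0.93 and -0.99, so that Col6a1 and Col6a3 came to lie just inside the fold limit with adjusted p of 0.00116 and 0.000401. Col15a1 fell by 1.43 ± 0.31 on the log2 scale (adjusted p = 0.00173). Col2a1, the cartilage fibril collagen, fell from 8.76 and 8.57 to 3.63 and 4.53 CPM (log2 -1.12 ± 0.31, adjusted p = 0.0101), a call lost with the trends removed (-0.63). Leaving out MSC+RAW-LPS library a gave 12 calls in place of 16.

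Genes that make, process, bind and cut collagen were counted in the same fits, where the share of all genes called was 8.46% in OVX against sham, 16.4% in MSC+RAW against MSC, 10.9% in MSC+RAW-LPS against MSC and 27.4% against MSC+RAW. Of 20 tested genes for folding and modification, 1 was higher in OVX, Plod2, a lysyl hydroxylase (78.5 against 33.0 CPM, log2 1.24 ± 0.18, adjusted p = 0.00798). With GC and length trends removed it stood at 0.68 and was not called. Against MSC, MSC+RAW-LPS had 4 higher and 1 lower (25.0% of the list), with a list median of 0.7 beside -0.01 for all genes. Plod2 (log2 2.03 ± 0.17) and the prolyl 4-hydroxylase subunit P4ha2 (1.61 ± 0.15) rose, and the subunit P4ha3 fell by 1.08 ± 0.15. Against MSC+RAW there were 8 higher and 1 lower (9 of 20). MSC+RAW against MSC had 1 of each, P3h4 (log2 1.49 ± 0.20) and Crtap (-1.14 ± 0.21), partners in prolyl and lysyl modification of the chain, which is 2 of 20. With the trends removed P3h4 stood at 0.87 and lost its call.

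Processing and cross-linking genes had 0 edgeR calls of 12 tested in OVX against sham (2 at an unadjusted p of at most 0.05, and 0 by DESeq2), 1 higher of 11 in MSC+RAW against MSC (Pcolce, the procollagen C-proteinase enhancer, log2 1.13 ± 0.19), 3 higher in MSC+RAW-LPS against MSC (27.3%), and 2 higher and 2 lower against MSC+RAW (36.4%). With GC and length trends removed Pcolce stood at 0.52 in MSC+RAW against MSC and was not called. Lox, the lysyl oxidase that starts cross-linking, stood at 1050.4 and 1148 CPM in MSC+RAW-LPS, 273 and 473 in MSC, and 235 and 233 in MSC+RAW. Its log2 fold changes were 1.56 ± 0.21 (adjusted p = 4.9e-05) and 2.20 ± 0.28 (adjusted p = 2.3e-05). Bmp1, the procollagen C-proteinase, rose by 1.07 ± 0.15 against MSC, close to the fold limit, and was called in 12 of 15 alternatives.

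Collagen receptors had 0 edgeR calls of 12 in OVX against sham (5 at an unadjusted p of at most 0.05, and 0 by DESeq2) and 2 lower in MSC+RAW against MSC (Itga1 and Itga2, alpha chains of collagen-binding integrins). DESeq2 called 1 there, and with GC and length trends removed Itga1 stood at -0.44 and Itga2 at -0.89, neither of them called. In MSC+RAW-LPS against MSC, 3 were higher and 2 lower (41.7%), and against MSC+RAW 3 were higher and 1 lower (33.3%), near the 27.4% of all genes. Itga2 averaged 4.98 CPM in MSC+RAW-LPS and 1.16 in MSC (adjusted p = 0.000947), and Lair1, an inhibitory receptor of leukocytes, fell from 45.6 to 11.3 CPM (-2.02 ± 0.18). Gp6, the platelet collagen receptor, reached 157 counts in a MSC+RAW-LPS library and 0 in both MSC libraries.

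Of the degradation genes, 5 of 10 were higher and 2 lower in MSC+RAW-LPS against MSC (70.0%, against 10.9% of all genes), 4 higher and 1 lower against MSC+RAW (50.0%, against 27.4%), and 0 were called by edgeR in MSC+RAW against MSC (3 at an unadjusted p of at most 0.05, and 0 by DESeq2). Mmp13, an interstitial collagenase, stood at 1640.2 and 1405 CPM against 188 and 183 (log2 3.03 ± 0.17, adjusted p = 2.06e-09), and the gelatinase gene Mmp9 at 699.9 and 739 against 40.8 and 35.0 (4.24 ± 0.17, adjusted p = 9.42e-11). Mrc1, a macrophage mannose receptor that also takes up collagen, fell from 589 to 4.01 CPM (-7.20 ± 0.20). In OVX, Mrc1 was higher (203 against 50.3 CPM, adjusted p = 0.00453) and Mmp9 lower (54.0 against 176 CPM, -1.72 ± 0.17) than in sham, 1 call in each direction of 9 tested.

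Marker genes of other cells moved in the same comparisons. Of 16 macrophage markers, 0 were higher and 4 lower in OVX (25.0% called, against 8.46% of all genes), 5 higher and 1 lower in MSC+RAW against MSC (37.5% against 16.4%), 1 higher and 7 lower in MSC+RAW-LPS against MSC (50.0% against 10.9%), and 4 higher and 8 lower against MSC+RAW (75.0% against 27.4%). Of 15 stromal markers, 1 was higher in OVX (Postn, an extracellular matrix protein that binds collagen), which is 6.67% of the list. The same 15 had 1 higher and 3 lower in MSC+RAW against MSC (26.7%), 4 higher and 2 lower in MSC+RAW-LPS against MSC (40.0%), and 7 higher and 2 lower against MSC+RAW (9 of 15). The summed stromal markers ranged between 1767 and 1795 CPM in MSC+RAW-LPS and between 1749.6 and 1862 in MSC, but single markers differed widely. Against MSC, the collagen-binding proteoglycan genes Dcn (194 against 7.58 CPM, log2 4.68 ± 0.18, adjusted p = 5.15e-11) and Lum (22.4 against 0.392 CPM, log2 5.87 ± 0.32, adjusted p = 1.92e-09) rose in MSC+RAW-LPS, and Tagln, an actin-binding protein gene, fell (12.5 against 30.2 CPM, log2 -1.27 ± 0.25, adjusted p = 0.00164). These were chosen after their values were seen.

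Osteoblast markers summed to between 42.5 and 45.8 CPM in OVX and between 24.8 and 28.5 in sham. In OVX 1 of 6 tested was higher (16.7%, against 8.46% of all genes), the bone sialoprotein gene Ibsp (8.15 against 1.33 CPM, log2 2.57 ± 0.34, adjusted p = 0.00661). They summed to between 42.9 and 47.0 CPM in MSC, between 54.3 and 55.7 in MSC+RAW and between 41.0 and 41.8 in MSC+RAW-LPS. In MSC+RAW against MSC 2 of 7 were higher (28.6%, against 16.4% of all genes), Bglap and Bglap2. Ibsp was lower in MSC+RAW-LPS against MSC (1 of 7, 14.3% against 10.9%). Bglap, Bglap2 and Ibsp were lower against MSC+RAW (3 of 7, 42.9% against 27.4%). DESeq2 called 1 in each of these comparisons. The 3 genes averaged at most 2.63 CPM in the MSC groups, while Runx2, Sp7 and Alpl were not called. With GC and length trends removed, Bglap lost its call against MSC and Bglap2 against MSC+RAW. Chondrocyte markers summed to between 15.5 and 15.7 CPM in OVX, to less in every sham library, and to at most 9.83 in the MSC groups. Of 3 tested, 1 was higher in OVX (Matn3, 0.894 against 0.126 CPM, adjusted p = 0.032), a call kept in 10 of 14 alternatives, and of the 2 tested in the MSC groups 0 were called by edgeR or DESeq2 (1 at an unadjusted p of at most 0.05, in MSC+RAW-LPS against MSC). Adipocyte markers summed to between 109 and 121 CPM in MSC, between 84.7 and 85.8 in MSC+RAW and between 27.9 and 33.6 in MSC+RAW-LPS, where 2 of 3 were lower against both other groups (Fabp4 and Plin1), and to between 81.6 and 84.4 in OVX and between 43.6 and 70.9 in sham. Endothelial markers summed to at most 48.2 CPM in any library, with 1 of 6 (Vwf) lower in MSC+RAW-LPS against both other groups. The part of any of these in the collagen differences was not tested.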

How the data were processed

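Directional libraries of poly(A) RNA were sequenced in pairs, and per the labels and methods the reads were trimmed with Trim Galore 0.6.7, mapped to GRCm38 with HISAT2 2.1.0 and counted on Ensembl genes with featureCounts 2.0.1. The authors deposited unnormalized, unfiltered counts, and gave the exon length of each gene beside them. Strand setting and counting of pairs are not given in the sources used here. In each library 60% to 71.4% of low counts were even, so counts are not single molecules.

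All 12 libraries were used. Gene names, GC content and transcript lengths came from GENCODE M21. Counts were tested with edgeR 4.0.16 in R 4.3.3 (TMM, filterByExpr, two-sided quasi-likelihood test), apart for the BMM libraries and for all MSC libraries, with Benjamini-Hochberg adjustment over all genes tested. Near-identical libraries were summed before the fit, and mean CPM counts them once. No fold is given where both groups have at most 3 counts. Coculture columns name the group but not the replicate, so their libraries are called a and b. Named are the 3 members of each class with the highest level per exon length, and every called member with at least 1 CPM, while weaker called type VI genes, Col17a1 and Col28a1 are named with their counts because they complete the calls. Of the pathway lists, called genes of large change are named. Other genes (Col9a1, Acan, Col5a1) were chosen after their values were seen. Members and lists were chosen with earlier results of these data known.

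Alternatives included RLE, DESeq2 1.42.0, other filters, each sample left out, and lowess trends (span 0.3) on GC content and length removed. Scaling by library totals alone, header codes as a block and transcript length were chosen after seeing the data. The fits were tested on simulated data. Tables used python 3.11.15 and pandas 2.3.3, intervals scipy 1.17.1, and figures matplotlib 3.10.9.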

Additional observations from a re-analysis of the deposited data

How the results depend on the processing

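Counts given below with an unadjusted p keep the fold limit. The count of called members in OVX against sham was 2 and moved to 4 with an unadjusted p. With all libraries kept apart and the replicate number as a block it was 4 (2 higher and 2 lower). Same-numbered OVX and sham libraries correlated at 0.409, -0.026 and 0.353 in their deviations, and differently numbered ones at between -0.482 and 0.304. In the column headers, replicate 2 of both groups carries a code series that the other replicates do not. These values do not settle whether the numbers mark a pairing. The coculture columns carry no replicate number that ties them to a sample, so the MSC groups could not be blocked by number. With all libraries kept apart and the codes of the column headers as a block instead, chosen after seeing the data, the counts were 4 in MSC+RAW against MSC, 11 in MSC+RAW-LPS against MSC, 16 in MSC+RAW-LPS against MSC+RAW and 2 in OVX against sham. Leaving out one sample each gave 1 (without OVX replicate 2) to 5 (without sham replicate 1). In MSC+RAW against MSC the count was 3, moved to 8 with no fold limit and to 5 with an unadjusted p, and ranged from 1 (without MSC replicate 2) to 4 with one sample left out. In MSC+RAW-LPS against MSC it was 11, and 18 with no fold limit. In MSC+RAW-LPS against MSC+RAW it was 16 and moved by at most 1.5 times, 11 being the lowest, at a mean of at least 1 CPM.

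Without ribosomal RNA and mitochondrial DNA genes, collagen took 1.1% of counts in OVX, 0.893% in sham, 0.57% in MSC, 0.421% in MSC+RAW and 0.616% in MSC+RAW-LPS. As a share of TPM, which is per exon length, it took 0.272% in OVX, 0.209% in sham, 0.153% in MSC, 0.119% in MSC+RAW and 0.134% in MSC+RAW-LPS, so MSC then lies above MSC+RAW-LPS.

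Of 778 alternative values for 54 gene results, 731 kept direction and side of the threshold, 18 lost a call, 4 gained one and 25 turned sign. All that turned were uncalled. With library totals alone, which moved the median of all genes in OVX against sham to 0.244 and in MSC+RAW against MSC to -0.491, they were Col18a1 (-0.05), Col4a1 (-0.14) in MSC+RAW-LPS against MSC, Col1a1 (-0.31) and Col6a1 (-0.36) in MSC+RAW against MSC, and Col1a1 (0.23) and Col3a1 (0.16) in OVX. With GC and length trends removed they were Col1a1 (-0.48), Col4a1 (-0.07) and Col6a1 (-0.48) in MSC+RAW against MSC, Col4a1 (0.12) in MSC+RAW-LPS against MSC+RAW, and Col1a1 (0.38), Col3a1 (0.06), Col4a1 (0.13) and Col4a2 (0.11) in OVX. With 1 sample left out, in OVX against sham Col1a1 ranged from -0.07 to 0.02, Col3a1 from -0.26 to 0.01 and Col4a1 from -0.49 to 0.00, and in MSC+RAW-LPS against MSC Col4a2 ranged from -0.08 to 0.03. Col6a1 in MSC+RAW against MSC stood at 0.00 and turned to -0.03 with libraries kept apart, with or without header codes as a block, to -0.02 with only the 2 groups compared, and ranged from -0.03 to 0.02 with 1 sample left out. The cause was not tested. MSC+RAW is 1 sample, so every value against it lacks its own replicate error.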
